A study of Rattus norvegicus with 18 samples.

Results

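The comparison described here asks what the removal of most of the renal mass had done to the soleus muscle of rats, apart from the side of the limb. The left and the right array of each rat were averaged, and the averages of 5 rats with 5/6 nephrectomy (SNX) were set against those of 4 sham-operated rats. All 18 of the 18 arrays of the series enter it, 2 for each of 9 male rats. The nephrectomy serves as a model of chronic kidney disease. Rats of both groups, the sham rats included, had the right femoral artery ligated and resected 8 weeks after the operation, and muscle of both limbs was taken another 24 hours later, so every average holds 1 limb with and 1 limb without ligation. The source field of the labels names every array of SNX rats ischemic and every array of sham rats nonischemic, which conflicts with the design text, and the limbs are therefore named by side. Messenger RNA was measured on Affymetrix arrays, whose deposited values are log2 signals of probe sets, and a difference of 1 on this scale is a factor of 2. The labels give neither the time of day at which muscle was taken nor the food intake, age or weight of the rats.

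The soleus is a postural muscle of the lower leg made mainly of slow, oxidative fibres. Chronic kidney disease is known for muscle wasting, insulin resistance, inflammation and altered lipid and amino acid handling, and activins, myostatin, glucocorticoids, uraemic solutes and reduced food intake are among the factors studied as its causes. A bulk sample also holds blood vessels, connective tissue, nerve branches, fat cells and immune cells, whose transcripts are measured together with those of the fibres.

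The table held 31042 probe sets besides the controls, and 14217 named genes were each represented by the probe set with the highest mean over the 18 arrays. Array medians ran from 3.22 to 3.37, and no 2 arrays were identical. Pairs of arrays correlated at 0.968 to 0.997, and the right arrays of SNX rat 49 (mean correlation with the other arrays 0.980) and of sham rat 17 (0.978) stood apart from the rest. Skeletal muscle markers were bright: 7 slow fibre markers had a mean level by rat of 11.8 to 14.3 in SNX rats and 12.5 to 14.5 in sham rats, and 7 fast fibre markers stood at 14.9 to 15.0 in both groups. Levels of different probe sets cannot be set against each other, so the markers show muscle but do not bear out that it was mainly slow. The table carries no detection calls, so a difference in which 1 group lies near or below the median of all probe sets has no exact size; this holds for Scd, Thrsp, Inhbb, Serpina3n, Cth and Cidec. Nephrectomy targets no gene, so no transcript checks the labels of the operation. Values by rat are given below in the order of the rat numbers, which are 12, 18, 20, 37 and 49 in SNX rats and 11, 13, 15 and 17 in sham rats.

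No probe set passed the test on the rat averages. With limma and Benjamini-Hochberg adjustment, 0 of 31042 probe sets (0%) reached an adjusted p of 0.05, and the lowest adjusted p was 0.440. At an unadjusted p below 0.05 there were 2595 probe sets (8.36%), 1431 of them higher and 1164 lower in SNX rats. The values below are therefore a description of these 9 rats, and no gene is called changed. Of the 14217 genes, 590 (4.15%) had an unadjusted p below 0.05 with a higher and 801 (5.63%) with a lower mean in SNX rats. The difference lay above 0 in 60.6% of the genes and below 0 in 39.4%, with a median of 0.02, and its size was 0.07 at the median.

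A second description counts genes whose rat averages did not overlap between the groups. In 240 genes (1.69%) all 5 SNX averages lay below all 4 sham averages, and in 178 genes (1.25%) they lay above them. The differences of the lower genes were the larger ones, with a median of -0.60 against 0.24 in the higher genes. Of the lower genes 31 differed by more than 1 on the log2 scale, and of the higher genes 6 did. Leaving out a rat raises such counts by construction, but the counts also differed between omissions of equal size, for which the reason was not tested. Leaving out SNX rat 12 gave 413 lower genes (2.90%) and 602 higher genes (4.23%), and leaving out SNX rat 49 gave 519 lower (3.65%) and 401 higher (2.82%). With sham rat 11 left out there were 584 lower (4.11%) and 1603 higher genes (11.3%). Omission of sham rat 15 gave 367 lower genes (2.58%), and that of sham rat 17 gave 404 higher genes (2.84%). The lists named below are read against these shares of all genes and not on their own.

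Each limb alone gave other counts. In the right limb, 104 genes (0.732%) were lower and 742 (5.22%) higher in all SNX arrays than in all sham arrays, and in the left limb 311 (2.19%) were lower and 164 (1.15%) higher. In both limbs at once, 9 genes (0.0633%) were lower and 2 (0.0141%) higher. The 9 lower genes were Gbp2, an interferon-induced GTPase, Mfap5, a microfibril protein, Stard4 and Stard13, which share a lipid-binding domain, Gnb1, a G protein subunit, the nuclear receptor Nr1h2, Nucb1, Rnf13 and Skil, a repressor of TGF-beta signalling. They were all listed because the count is small, and their differences between the rat averages ran from -0.24 (Nr1h2) to -0.86 (Mfap5). The 2 higher genes were Bod1 (0.26) and Six6 (0.06), the second of them dim at a mean signal of 2.38. The difference between the SNX effects of the 2 limbs was tested as well, and 0 probe sets (0%) passed, with a lowest adjusted p of 0.912 and 921 (2.97%) at an unadjusted p below 0.05.

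**Figure D1:**
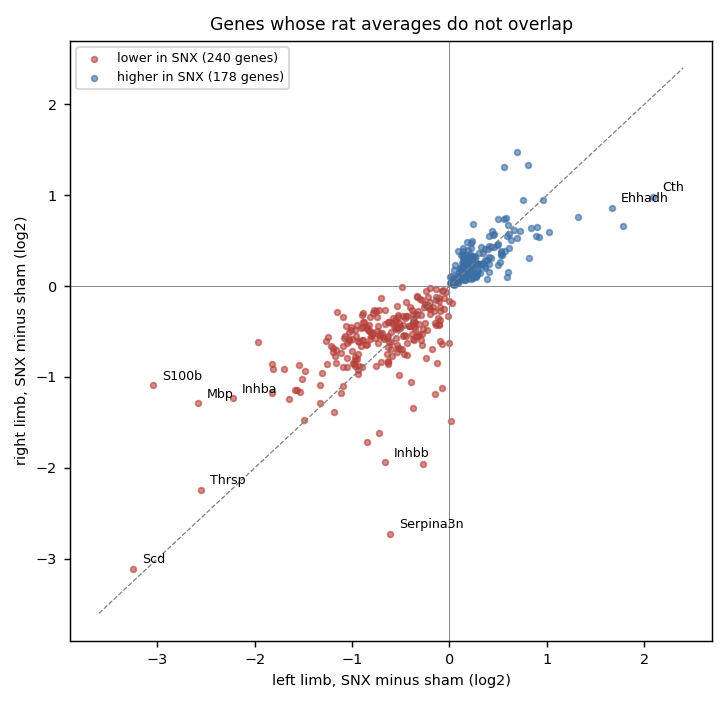
Log2 difference, SNX minus sham, in the right limb (vertical axis) against the left limb (horizontal axis) for the genes whose rat averages did not overlap, 1 point per gene, with 240 lower genes and 178 higher genes in 2 colours. Scd and Thrsp lie near the diagonal (dashed), S100b and Inhba further out in the left limb, Serpina3n and Inhbb further out in the right limb.

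Several genes of fatty acid synthesis were lower in SNX rats without overlap. Scd, which places the double bond in stearate, read 4.07, 3.20, 3.11, 3.21 and 3.05 in SNX rats, against 5.31, 8.31, 5.95 and 6.46 in sham rats. The SNX averages lay near the median of all probe sets and the sham averages spread over 3 log2 units. The difference was -3.18 ± 0.56 (SE, limma adjusted p = 0.440), with -3.11 ± 0.94 in the right and -3.25 ± 0.54 in the left limb. Fasn, the fatty acid synthase itself, read 6.70, 5.86, 6.23, 6.55 and 6.60 in SNX rats, against 7.49, 8.22, 7.48 and 8.36 in sham rats, a difference of -1.50 ± 0.25 (adjusted p = 0.440). Its other probe set gave -1.52 ± 0.18. Thrsp, a regulator of lipogenic genes in liver and fat, averaged 2.87 ± 0.50 in SNX rats (SD, n = 5) and 5.26 ± 0.95 in sham rats (n = 4), a difference of -2.40 ± 0.45. Its 2 other probe sets gave -0.60 ± 0.26 and -0.57 ± 0.20. Acly, which supplies cytosolic acetyl-CoA (-0.60 ± 0.14), and the elongase Elovl5 (-0.50 ± 0.12) did not overlap either.

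These members belong to a list of 20 genes of fatty acid synthesis and desaturation that was drawn up after the values had been seen. In it 5 genes were lower in SNX rats without overlap, against 1.69% of all genes, and none was higher, against 1.25%. Without SNX rat 12 or sham rat 17 there was 1 higher gene, against 4.23% and 2.84%. The list's median difference was -0.10, since 9 members lay above 0, and ran from -0.24 to -0.03 with single rats left out. The desaturase Fads1 (-0.68 ± 0.18) and the carboxylase Acaca (-0.50 ± 0.17) overlapped between the groups. The regulator Srebf1 differed by 0.07 ± 0.47 and the regulator Mlxipl by -0.01 ± 0.11. Of 14 genes of cholesterol synthesis and transport, also chosen afterwards, 12 lay below 0, with a median of -0.18. Only the cholesterol carrier Stard4 did not overlap (-0.55 ± 0.09), against 1.69% of all genes. Without SNX rat 49 there were 4 such genes, against 3.65%, and without SNX rat 20 or sham rat 11 there were 2, against 2.41% and 4.11%.

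Markers of fat cells were mostly lower in SNX rats, with 6 of 9 below 0 and 3 above it. At an unadjusted limma p below 0.05 there were 5 lower and 1 higher, against 5.63% and 4.15% of all genes. Over 9 adipocyte markers the mean level by rat was 6.08 to 6.69 in SNX rats and 6.45 to 7.78 in sham rats, and the median difference was -1.31 (-0.69 with the median over all probe sets of each gene). Adiponectin, Adipoq, read 5.43, 5.82, 4.89, 4.14 and 6.36 in SNX rats, against 6.34, 8.88, 7.60 and 8.13 in sham rats. SNX rat 49 reached the level of sham rat 11, and the other SNX rats lay below all sham rats. The difference of Adipoq was -2.41 ± 0.60, that of the complement protease Cfd -1.50 ± 0.47, and that of Plin1, a coat protein of lipid droplets, -1.37 ± 0.46. The lipid droplet gene Cidec, at -1.31 ± 0.37, was the 1 marker without overlap, and there were 5 without sham rat 11 (against 4.11% of all genes) and 2 without SNX rat 49 (3.65%). Fabp4, a carrier of fatty acids that endothelium also expresses, differed by -0.22 ± 0.22 and Acsl1 by 0.23 ± 0.18, and Lep lay below the median of all probe sets in every rat. Cidec is one of the 2 markers that were dimmer on average than that median, with Lep. In a bulk sample, fewer cells of a type and less RNA per cell cannot be told apart, and the part of fat cells in the lipogenic values was not tested.

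**Figure D2:**
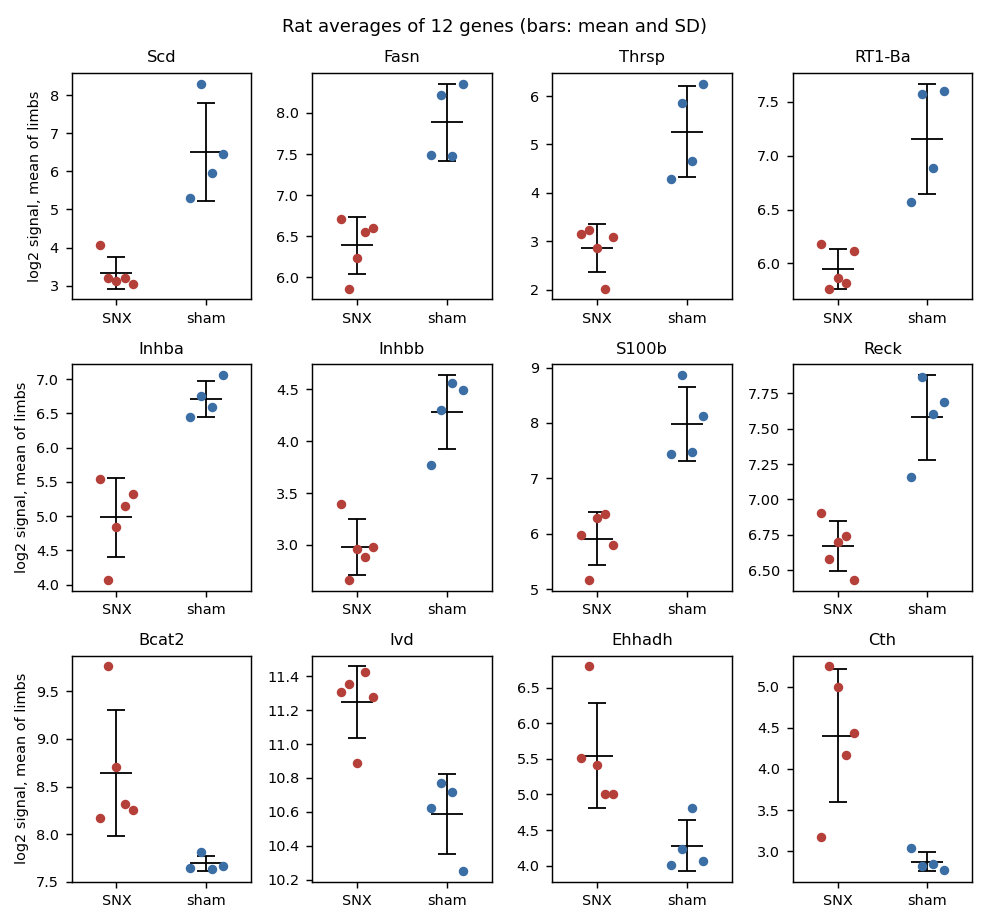
Log2 signal of 12 genes, 1 point per rat (mean of its left and right array), SNX rats left and sham rats right in each panel, with bars for the mean and SD. Scd, Fasn, Thrsp, RT1-Ba, Inhba, Inhbb, S100b and Reck lie lower in all 5 SNX rats than in all 4 sham rats, and Bcat2, Ivd, Ehhadh and Cth lie higher.

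The activin genes were the next to stand apart. Activins are dimers of inhibin beta chains that signal through the same type II receptors as myostatin, a brake on muscle growth. Inhba, the beta A chain, read 5.55, 4.06, 4.85, 5.14 and 5.32 in SNX rats, against 6.44, 6.75, 6.59 and 7.07 in sham rats, a difference of -1.73 ± 0.29 (limma adjusted p = 0.440). It was -1.23 ± 0.38 in the right and -2.22 ± 0.52 in the left limb, and the other probe set of Inhba was lower in all SNX rats as well. Inhbb, the beta B chain, read 3.40, 2.66, 2.96, 2.89 and 2.98 in SNX rats, against 3.77, 4.30, 4.56 and 4.49 in sham rats, and its difference of -1.30 ± 0.19 came to -1.94 ± 0.28 in the right and -0.67 ± 0.25 in the left limb. Most left-limb values of Inhbb lay below the median of all probe sets, so its limb values have no exact size, and neither gene passed the test of the difference between limbs. With the 18 arrays fitted as if the limbs of a rat were independent, Inhbb had a limma adjusted p of 0.0478. The limbs of a rat were correlated (0.297), and with the rat as a random block no probe set passed. Fst, whose product binds and blocks activins, was also lower without overlap (-0.94 ± 0.28), and its other probe set gave -1.10 ± 0.27.

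The receptor gene Acvr2b ran the other way. It read 7.18, 7.49, 7.41, 7.52 and 6.93 in SNX rats, against 6.45, 6.86, 6.83 and 6.53 in sham rats, a difference of 0.63 ± 0.15 (adjusted p = 0.488). The lowest SNX average, of rat 49, lay just above the highest sham average, of rat 13. Of the 13 measured genes of the myostatin and activin axis, 3 were thus lower and 1 higher without overlap, against 1.69% and 1.25% of all genes, and the list's median was -0.21. Without SNX rat 12 or without sham rat 11, 5 were lower, against 2.90% and 4.11% of all genes. Without SNX rat 20, 2 were higher, against 1.87%. Mstn itself was dim and differed by 0.09 ± 0.08.

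Genes of the connective tissue were lower in SNX rats across whole lists. All 20 extracellular matrix genes had a difference below 0, against 39.4% of all genes, and their median was -0.56, with -0.35 in the right and -0.77 in the left limb. There were 5 without overlap, Col4a1, Col5a2, Col6a3, Col15a1 and Dcn, against 1.69% of all genes, and 8 without sham rat 11, against 4.11%. The proteoglycan decorin, Dcn, read 12.53, 12.58, 12.36, 12.44 and 12.42 in SNX rats, against 12.62, 13.25, 13.17 and 13.44 in sham rats, a difference of -0.65 ± 0.15 (adjusted p = 0.488). The 5 SNX rats lay close together, and sham rat 11 lay closest to them. The basement membrane collagen Col4a1 differed by -0.69 ± 0.15. The abundant fibrillar collagens differed by less than their errors, with -0.16 ± 0.45 for Col1a1 and -0.27 ± 0.34 for Col1a2.

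Among 21 genes of proteoglycans, metalloproteinases and their inhibitors, 18 lay below 0, against 39.4% of all genes, with a median of -0.46. There were 4 without overlap, against 1.69%, and 8 without sham rat 11, against 4.11%. Reck, a membrane-anchored inhibitor of metalloproteinases, read 6.91, 6.58, 6.70, 6.74 and 6.43 in SNX rats, against 7.16, 7.87, 7.60 and 7.69 in sham rats. Its difference was -0.91 ± 0.15 (limma adjusted p = 0.440), with -0.57 ± 0.21 in the right and -1.25 ± 0.12 in the left limb. Reck did not pass the test of the difference between limbs. The adjusted p of its mean over limbs was 0.0478 with the limbs taken as independent arrays, but with the rat as a random block no probe set passed. The glypican Gpc6 (-0.72 ± 0.13), the aggrecanase Adamts4 (-1.17 ± 0.27) and the membrane protease Mmp14 (-0.63 ± 0.17) were the others. Efemp1, a fibulin of the elastic matrix, averaged 7.93 ± 0.14 in SNX rats (SD, n = 5) and 8.74 ± 0.29 in sham rats (n = 4).

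Fibroblast markers were lower in SNX rats too. All 10 lay below 0, with a median of -0.61, and their mean level by rat was 8.92 to 9.17 in SNX rats and 9.19 to 10.1 in sham rats. Dcn, Mfap5, Pi16 and Fap did not overlap, against 1.69% of all genes, and 7 markers did not without sham rat 11, against 4.11%. Pi16, a marker of adventitial fibroblasts, differed by -0.97 ± 0.27, and Pdgfra, the receptor by which fibroblasts of muscle are often sorted, by -0.75 ± 0.23. Dcn, Lum, Col1a1 and Col1a2 stand in the matrix list too, so the lists are not independent. All 5 tenocyte markers, of tendon cells, lay below 0 as well, with a median of -0.55 (-0.28 in the right and -0.74 in the left limb). That median became -0.96 when sham rat 11 was omitted, -0.36 on leaving out sham rat 15 and -0.16 with sham rat 13 removed. Their mean level by rat was 7.75 to 8.57 in SNX rats and 7.69 to 9.65 in sham rats, and none was without overlap. Leaving out SNX rat 37 or sham rat 11 gave 1, against 1.93% and 4.11% of all genes. The part of fibroblast number and of tendon in the matrix values was not tested.

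Markers of Schwann cells, the cells that wrap nerve fibres in myelin, gave the lowest median of the lists, at -1.34 over 7 genes. Of these 5 lay below 0 and 2 above it, and 3 were lower without overlap, against 1.69% of all genes. S100b, a calcium-binding protein that fat cells also express, read 5.97, 5.16, 6.28, 6.35 and 5.79 in SNX rats, against 7.44, 8.87, 7.48 and 8.12 in sham rats. Its difference of -2.07 ± 0.36 (adjusted p = 0.440) came to -1.09 ± 0.74 in the right and -3.05 ± 0.59 in the left limb. Mbp (-1.94 ± 0.64) and Pmp22 (-1.34 ± 0.37), which encode proteins of the myelin sheath, did not overlap either, and Egr2, a regulator of myelination that is also an immediate early gene, differed by -1.67 ± 0.53 with overlap. The lineage marker Sox10 and the myelin gene Mag lay below the median of all probe sets in every rat, at 2.08 to 2.14 and 2.67 to 2.91. The other 2 probe sets of Mbp were dim and gave -0.40 ± 0.28 and -0.57 ± 0.23, and with the median over all probe sets of each gene the list stood at -0.57.

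**Figure D3:**
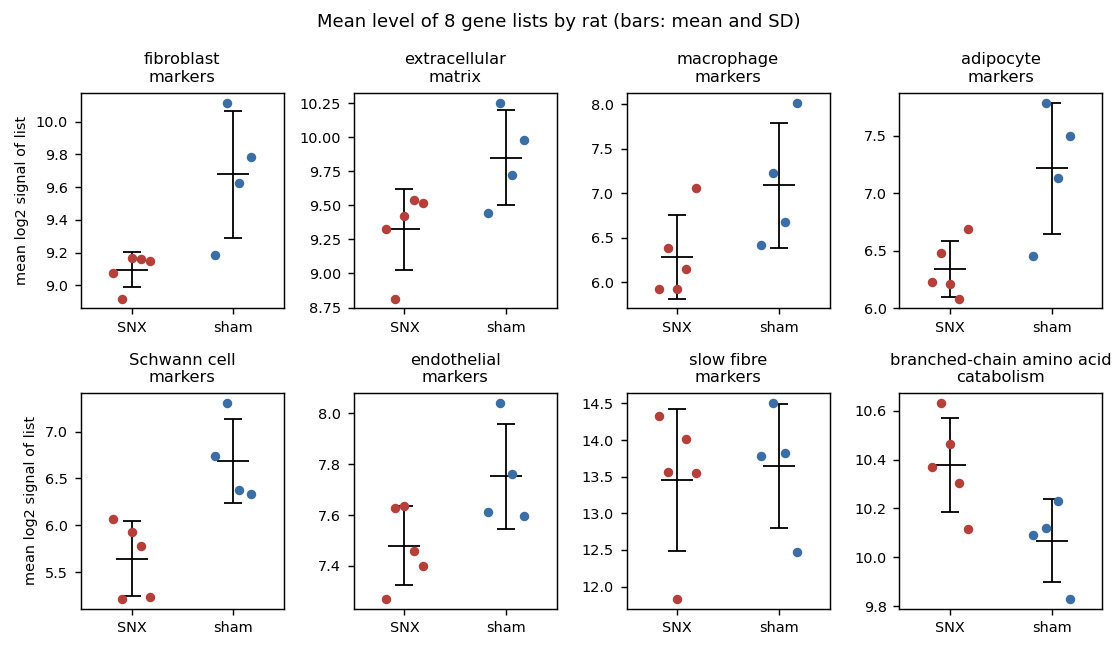
Mean log2 signal of 8 gene lists, 1 point per rat (mean of both limbs), SNX rats left and sham rats right, with bars for the mean and SD over rats. Fibroblast and Schwann cell markers lie lower in all SNX rats than in all sham rats. Macrophage, adipocyte and endothelial markers, matrix genes and branched-chain amino acid catabolism genes overlap. The slow fibre markers spread widely in both groups, with SNX rat 20 lowest at 11.8.

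Genes of antigen presentation by MHC class II, which displays peptides on macrophages, dendritic cells and B cells, were lower in SNX rats. This list of 9 measured genes was also drawn up after the values had been seen. All 9 lay below 0, against 39.4% of all genes, with a median of -0.88, and 5 did not overlap, against 1.69%. The windows of RefSeq (GRCr8) from 250 bases before to 50 after the start are shown for 4 of these 5, the alpha and beta chain genes, because they share a known promoter element, the Y box, whose core reads ATTGG. Capitals mark ATTGG and its reverse complement CCAAT. They lie at chr20:4576807-4577106 (+ strand, RT1-Ba), chr20:4604069-4604368 (- strand, RT1-Bb), chr20:4515165-4515464 (+ strand, RT1-Da) and chr20:4560113-4560412 (- strand, RT1-Db1).
RT1-Ba: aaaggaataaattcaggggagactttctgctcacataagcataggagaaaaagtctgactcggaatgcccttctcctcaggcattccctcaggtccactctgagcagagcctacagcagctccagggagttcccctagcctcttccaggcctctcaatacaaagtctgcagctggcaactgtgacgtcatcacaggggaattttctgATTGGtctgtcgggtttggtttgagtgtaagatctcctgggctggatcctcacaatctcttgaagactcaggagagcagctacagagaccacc
RT1-Bb: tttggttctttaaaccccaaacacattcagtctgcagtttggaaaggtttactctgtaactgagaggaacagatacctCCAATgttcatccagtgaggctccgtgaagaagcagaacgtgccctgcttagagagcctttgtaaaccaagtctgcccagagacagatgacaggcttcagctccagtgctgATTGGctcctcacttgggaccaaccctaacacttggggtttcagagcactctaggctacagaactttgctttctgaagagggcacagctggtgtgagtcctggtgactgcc
RT1-Da: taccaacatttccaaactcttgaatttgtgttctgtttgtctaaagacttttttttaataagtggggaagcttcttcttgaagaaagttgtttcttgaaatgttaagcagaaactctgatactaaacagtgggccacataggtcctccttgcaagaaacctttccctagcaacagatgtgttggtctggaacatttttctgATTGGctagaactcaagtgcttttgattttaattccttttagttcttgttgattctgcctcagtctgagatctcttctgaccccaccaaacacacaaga
RT1-Db1: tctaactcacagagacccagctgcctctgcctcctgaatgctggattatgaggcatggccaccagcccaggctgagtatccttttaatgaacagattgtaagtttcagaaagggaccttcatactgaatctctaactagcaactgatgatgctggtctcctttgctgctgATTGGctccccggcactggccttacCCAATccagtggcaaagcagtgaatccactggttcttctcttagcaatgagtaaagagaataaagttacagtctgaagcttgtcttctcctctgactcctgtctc

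The sense match began 43 bases before the start in RT1-Ba, 61 in RT1-Bb, 49 in RT1-Da and 80 in RT1-Db1. RT1-Bb and RT1-Db1 each held CCAAT as well, 172 and 55 bases before the start. Over the list, 7 members had 1 window each and 5 of the 7 held ATTGG on the sense strand, and all 7 held it on either strand, against 22.3% and 37.5% of 33469 promoter windows. A match is a description of letters and not a site.

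RT1-Ba, an alpha chain, read 6.18, 5.77, 5.86, 5.82 and 6.11 in SNX rats, against 6.57, 7.58, 6.88 and 7.60 in sham rats, a difference of -1.21 ± 0.23 (limma adjusted p = 0.440). RT1-Da read 7.88, 7.77, 7.90, 7.30 and 7.75 in SNX rats, against 8.17, 9.29, 8.45 and 9.19 in sham rats. Sham rats 13 and 17 were the high ones in both genes. The beta chains RT1-Bb (-1.35 ± 0.39) and RT1-Db1 (-0.88 ± 0.19) and the invariant chain Cd74 (-0.75 ± 0.21) showed the same order of groups. MHC genes are polymorphic and have close copies, so a probe set may read some alleles better than others. Another probe set of RT1-Ba, dim at a mean of 2.66, gave 0.77 ± 0.50, and another of RT1-Bb, at a mean of 3.55, gave 1.16 ± 0.74, both opposite in sign, and with the median over all probe sets of each gene the list stood at -0.52. Ciita, the switch gene of class II transcription, was dim and differed by -0.06 ± 0.06. RT1-CE16, an MHC class I gene, averaged 6.23 ± 0.17 in SNX rats (SD, n = 5) and 6.85 ± 0.09 in sham rats (n = 4).

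Macrophage markers lay below 0 in 12 of 12 genes, with a median of -0.83, and their mean level by rat was 5.92 to 7.06 in SNX rats and 6.42 to 8.02 in sham rats. C1qa, a complement chain made by tissue macrophages, read 7.97, 7.61, 7.73, 7.91 and 7.76 in SNX rats, against 8.02, 9.14, 8.78 and 8.94 in sham rats, a difference of -0.92 ± 0.21 (adjusted p = 0.488). With C1qc (-0.77 ± 0.19) it made up the 2 markers without overlap, against 1.69% of all genes, which became 5 without SNX rat 49 (against 3.65%) and 4 without sham rat 11 (against 4.11%). The resident macrophage markers Cd163 (-1.11 ± 0.34) and Mrc1 (-1.08 ± 0.44) overlapped. All 10 T and B cell markers were dimmer than the median of all probe sets, and the median of their list was 0.01 (0.00 to 0.02 with single rats left out). The part of macrophages in the MHC class II values was not tested.

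Other immune lists differed less in their median. Of 14 acute phase and complement genes, with a median of -0.64, 4 were lower without overlap, against 1.69% of all genes, and 7 without sham rat 11, against 4.11%. These 4 were Serpina3n, C1qa, C1qc and C1r, and 5 of the 14 were dimmer than the median of all probe sets. C1qa and C1qc stand in the macrophage list too, so these lists are not independent. Serpina3n, a protease inhibitor of the acute phase, read 2.76, 2.55, 2.61, 2.61 and 2.95 in SNX rats, against 3.35, 5.34, 4.31 and 4.46 in sham rats. The SNX values lay below the median of all probe sets, and the difference of -1.67 ± 0.34 (adjusted p = 0.467) was -2.73 ± 0.48 in the right and -0.61 ± 0.33 in the left limb. Of 17 interferon response genes 16 lay below 0, with a median of -0.31 that became -0.17 without sham rat 17, and Gbp2, Psmb9, Isg15 and Usp18 did not overlap, against 1.69% of all genes. Gbp2 read 5.28, 5.89, 5.51, 5.69 and 5.83 in SNX rats, against 6.38, 6.17, 6.16 and 6.98 in sham rats.

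The 20 inflammatory cytokine, chemokine and adhesion genes had a median of -0.35, which was -0.09 without sham rat 17, and it was -0.50 in the right and -0.00 in the left limb. In it 11 members were dimmer than the median of all probe sets. Icam1, an adhesion receptor for leukocytes, read 4.87, 5.56, 5.68, 5.14 and 5.54 in SNX rats, against 6.28, 6.09, 6.08 and 6.68 in sham rats, a difference of -0.92 ± 0.20. The monocyte chemokine Ccl2 (-1.28 ± 0.38) did not overlap, nor did Il6, whose level was above 3 in sham rat 17 alone, at 4.62. Without SNX rat 49 there were 6 such genes, against 3.65% of all genes, in place of 3, against 1.69%. Fgl2, a fibrinogen-like protein made by macrophages and other immune cells, averaged 7.91 ± 0.36 in SNX rats (SD, n = 5) and 9.27 ± 0.44 in sham rats (n = 4). Its 4 probe sets gave differences from -1.05 to -1.67, and 2 of them reached a limma adjusted p of 0.0185 with the rat as a random block and without the 2 right arrays that stood apart. In the fit on all rat averages both had an adjusted p of 0.440. The arrays left out were picked from these same data, so these passes are no separate test.

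The series concerns angiogenesis after ischemia, and vascular genes are given for both limbs together. Of 26 angiogenic factors and receptors 17 lay below 0, against 39.4% of all genes, with a median of -0.19, and 3 were lower without overlap, against 1.69%. These were Flt1, a receptor of VEGF, at 7.79, 7.96, 7.42, 7.73 and 7.64 in SNX rats and 8.29, 8.07, 8.29 and 8.23 in sham rats (-0.51 ± 0.10), Notch1 (-0.49 ± 0.12) and Angpt2 (-0.46 ± 0.14). The count was 5 without SNX rat 20, sham rat 11 or sham rat 17, against 2.41%, 4.11% and 2.50% of all genes. Vegfa, the main VEGF ligand, read 11.25, 10.48, 11.18, 10.26 and 10.21 in SNX rats, against 11.09, 11.53, 11.97 and 10.99 in sham rats, so that SNX rats 12 and 20 lay among the sham rats. Its difference was -0.72 ± 0.30, that of the receptor Kdr -0.26 ± 0.18 and that of Nos3, the endothelial nitric oxide synthase, -0.15 ± 0.30, which was above 0 without sham rat 15, at 0.05.

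Endothelial markers lay below 0 in 10 of 10 genes, with a median of -0.31 (-0.19 without sham rat 13) and a mean level by rat of 7.27 to 7.63 in SNX rats and 7.60 to 8.04 in sham rats. Pecam1, a junction protein of endothelium, was the 1 marker without overlap (-0.37 ± 0.10), against 1.69% of all genes. There were 3 without SNX rat 20, against 2.41%. Omitting SNX rat 12, sham rat 11 or sham rat 17 gave 2, against 2.90%, 4.11% and 2.50%. The part of endothelial cell number in the angiogenic values was not tested. Among 17 HIF pathway genes and hypoxia targets the median was -0.07 (-0.12 to -0.04 with single rats left out). Ndrg1 (-1.01 ± 0.25) and P4ha2 (-0.33 ± 0.14) were lower without overlap, against 1.69% of all genes. F2r, the thrombin receptor PAR1 of vessels and fibroblasts, read 7.94, 7.67, 7.89, 7.94 and 7.94 in SNX rats, against 8.47, 9.10, 8.57 and 8.63 in sham rats (-0.82 ± 0.13, adjusted p = 0.440).

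**Figure D4:**
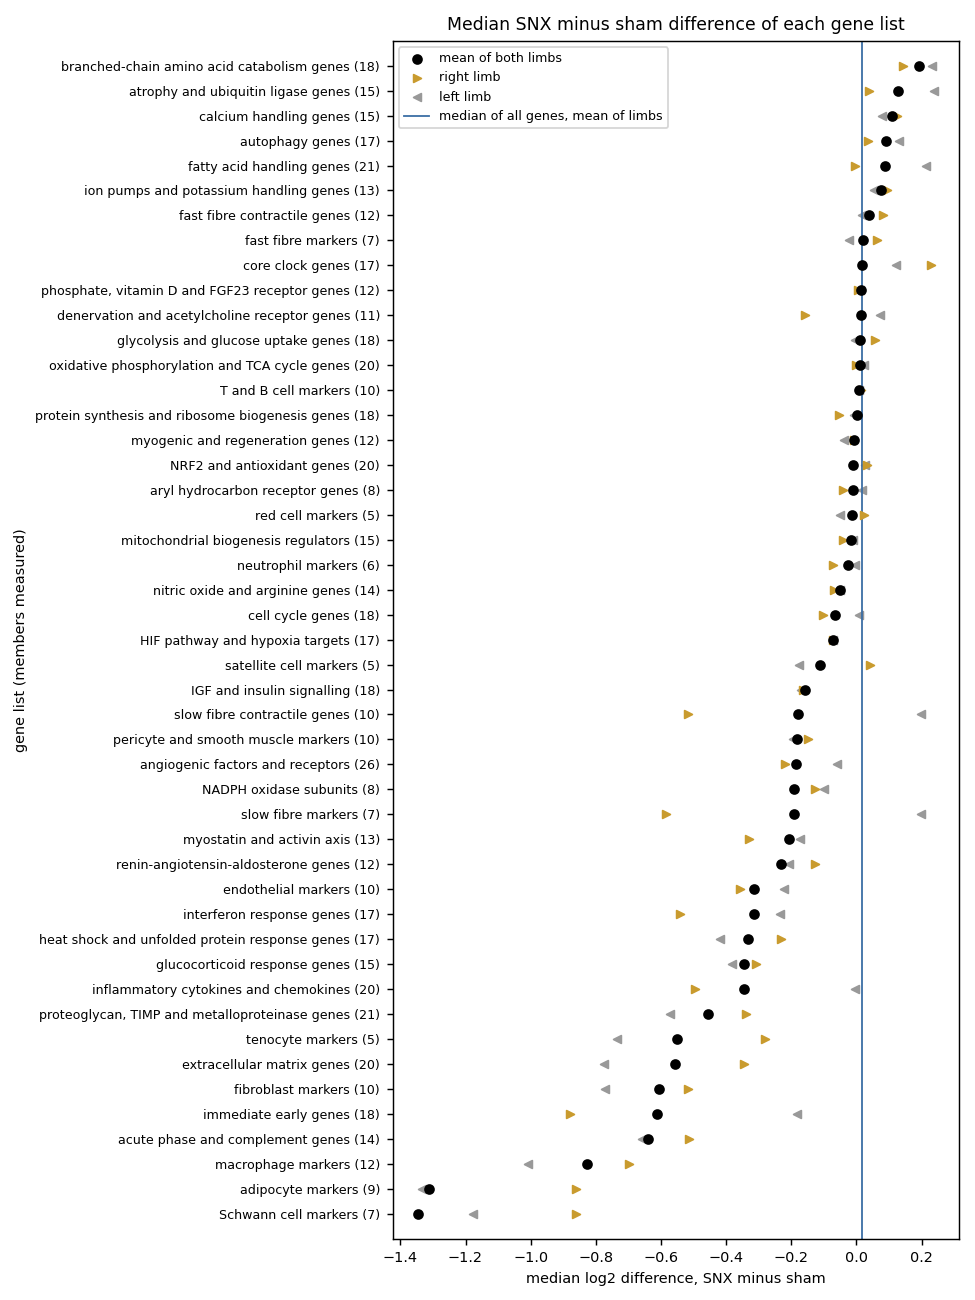
Median log2 difference, SNX minus sham, of each gene list with its number of measured members, for the mean of both limbs (circles) and for the right and left limb alone (triangles), with the median of all genes as a line at 0.02. The lists added after the values had been seen are not drawn. Branched-chain amino acid catabolism stands at the top at 0.19, and Schwann cell and adipocyte markers at the bottom at -1.34 and -1.31.

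Genes that break down branched-chain amino acids were mostly higher in SNX rats. Leucine, isoleucine and valine are first transaminated and then oxidised by a mitochondrial dehydrogenase complex, mainly outside the liver. Of 18 measured genes 17 lay above 0, against 60.6% of all genes, 4 did not overlap, against 1.25%, and the median was 0.19, with 0.14 in the right and 0.23 in the left limb (0.08 without sham rat 17). The mean level of the list by rat overlapped, at 10.12 (rat 49) to 10.63 in SNX rats and 9.83 to 10.23 in sham rats. Bcat2, the mitochondrial transaminase of the first step, read 8.17, 9.77, 8.70, 8.32 and 8.26 in SNX rats, against 7.65, 7.82, 7.64 and 7.67 in sham rats. SNX rat 18 was the highest, and the sham rats lay close together. Its difference was 0.95 ± 0.31 (limma adjusted p = 0.554), 0.94 ± 0.42 in the right and 0.96 ± 0.28 in the left limb. Dbt, a subunit of the dehydrogenase complex (0.61 ± 0.18), and Ppm1k, the phosphatase that activates it (0.72 ± 0.24), were higher too, and Bckdk, the kinase that opposes the phosphatase, differed by -0.05 ± 0.09. Ivd, of leucine breakdown, read 11.31, 11.35, 10.89, 11.43 and 11.28 in SNX rats, against 10.62, 10.77, 10.72 and 10.25 in sham rats (0.66 ± 0.14, adjusted p = 0.467).

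Further metabolic genes were picked after their values had been seen. Of 14 genes of peroxisomal fatty acid oxidation 13 lay above 0, against 60.6% of all genes, with a median of 0.14, and 3 were higher without overlap, against 1.25%. Ehhadh, a bifunctional enzyme of this pathway, read 5.51, 6.81, 5.41, 5.00 and 5.00 in SNX rats, against 4.01, 4.24, 4.81 and 4.07 in sham rats (1.26 ± 0.38), Acad11 differed by 0.78 ± 0.25 and Crot, which moves shortened acyl chains out of peroxisomes, by 0.40 ± 0.10. A list of 13 sulfur amino acid genes had a median of 0.01, with 9 above and 4 below 0. It held 1 gene higher and 1 lower without overlap, against 1.25% and 1.69% of all genes, and 5 of its genes were dimmer than the median of all probe sets. Without SNX rat 49 there were 2 higher, against 2.82%. Without SNX rat 12, sham rat 11 or sham rat 17 there were 2 lower, against 2.90%, 4.11% and 2.50%. The pair was Cth and Cdo1. Cth, which makes cysteine and hydrogen sulfide, read 3.18, 5.25, 4.99, 4.17 and 4.44 in SNX rats, against 3.04, 2.82, 2.84 and 2.77 in sham rats, and SNX rat 12 lay close to the sham rats. All 4 sham averages were below the median of all probe sets. The difference was 1.54 ± 0.39 (adjusted p = 0.489). Cdo1, which oxidises cysteine towards taurine and is abundant in fat, averaged 7.35 ± 0.61 in SNX rats (SD, n = 5) and 8.84 ± 0.72 in sham rats (n = 4).

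Core clock genes stood on both sides of the sham rats. The activators Bmal1 and Npas2 form one limb of the daily oscillator, and their targets Nr1d1, Nr1d2, Dbp, Tef and Per3 peak at another time of day. At an unadjusted p below 0.05 there were 6 higher genes (Nr1d1, Nr1d2, Dbp, Tef, Per3 and Bhlhe41) and 4 lower genes (Bmal1, Npas2, Cry1 and Nfil3) among 17, against 4.15% and 5.63% of all genes, and the median of the list was 0.02 (-0.04 to 0.12 with single rats left out). SNX rat 12 did not go with the other SNX rats. Per3 read 3.06, 5.25, 5.66, 5.69 and 6.01 in SNX rats, against 3.49, 3.52, 3.18 and 3.27 in sham rats, so that SNX rat 12 lay below all sham rats and the others above them. Bmal1 read 6.59, 5.21, 4.72, 4.66 and 4.88 in SNX rats, against 6.08, 5.89, 6.31 and 6.24 in sham rats, with SNX rat 12 above all sham rats and the others below.

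Nr1d2 and Bhlhe41 were the 2 higher genes without overlap, against 1.25% of all genes. Nr1d2, a repressor of Bmal1, read 10.80, 11.44, 11.60, 11.54 and 11.31 in SNX rats, against 10.54, 10.63, 10.60 and 10.62 in sham rats, a difference of 0.74 ± 0.15 (limma adjusted p = 0.467), with 0.64 ± 0.15 in the right and 0.83 ± 0.20 in the left limb. Nr1d1 differed by 1.33 ± 0.39, Dbp by 0.96 ± 0.41 and Per2 by 0.34 ± 0.26. In Nr1d1 and Dbp SNX rat 12, at 6.04 and 7.38, lay within the sham range, and the other SNX rats lay above it. The left limb gave the larger difference in Nr1d1 (1.96 ± 0.58, right 0.71 ± 0.25), Dbp (1.47 ± 0.50, right 0.46 ± 0.35) and Bmal1 (-1.23 ± 0.42, right -0.60 ± 0.39). None of these genes passed the test of the difference between limbs. Without SNX rat 12, 6 clock genes were higher and 4 lower without overlap, against 4.23% and 2.90% of all genes in the same setting, and 2 probe sets passed the test, both of clock genes. These were Nr1d2 (0.87 ± 0.06, adjusted p = 0.0351) and Per3 (2.29 ± 0.16, adjusted p = 0.0351). With all rats the limma adjusted p was 0.467 for Nr1d2 and 0.549 for Per3, and the groups overlapped in Per3. SNX rat 12 stood apart in these same clock values, so the passes without it describe them and are no separate test. Without sham rat 17 there were 4 higher genes, against 2.84% of all genes. The labels give no time of day for any rat, so operation and hour of sampling cannot be told apart here.

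The E-box CACGTG, to which the Bmal1 dimers bind, is its own reverse complement. It was found in the promoter windows of 3 of the 13 clock genes with exactly 1 window in the RefSeq table, Bhlhe40, Bhlhe41 and Tef, against 6.42% of 33469 windows. The windows of Bhlhe41 (chr4:180569306-180569605, - strand) and Tef (chr7:115206577-115206876, + strand) are shown because both genes were among the 6 higher ones, with the motif in capitals, starting 48 and 198 bases before the start. In a window without the motif the letters may stand elsewhere in the gene, and a match is a description and not a site.
Bhlhe41: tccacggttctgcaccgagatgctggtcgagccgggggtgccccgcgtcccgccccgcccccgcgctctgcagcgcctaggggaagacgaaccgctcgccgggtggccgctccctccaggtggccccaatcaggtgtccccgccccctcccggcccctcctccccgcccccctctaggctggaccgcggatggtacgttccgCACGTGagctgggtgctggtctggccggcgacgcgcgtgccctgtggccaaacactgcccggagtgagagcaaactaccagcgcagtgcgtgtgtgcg
Tef: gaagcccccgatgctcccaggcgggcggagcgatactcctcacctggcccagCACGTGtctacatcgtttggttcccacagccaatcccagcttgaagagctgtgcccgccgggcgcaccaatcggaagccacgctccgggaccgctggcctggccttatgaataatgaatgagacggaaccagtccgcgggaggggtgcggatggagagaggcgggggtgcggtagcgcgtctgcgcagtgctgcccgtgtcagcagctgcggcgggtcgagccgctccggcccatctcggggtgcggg

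**Figure D5:**
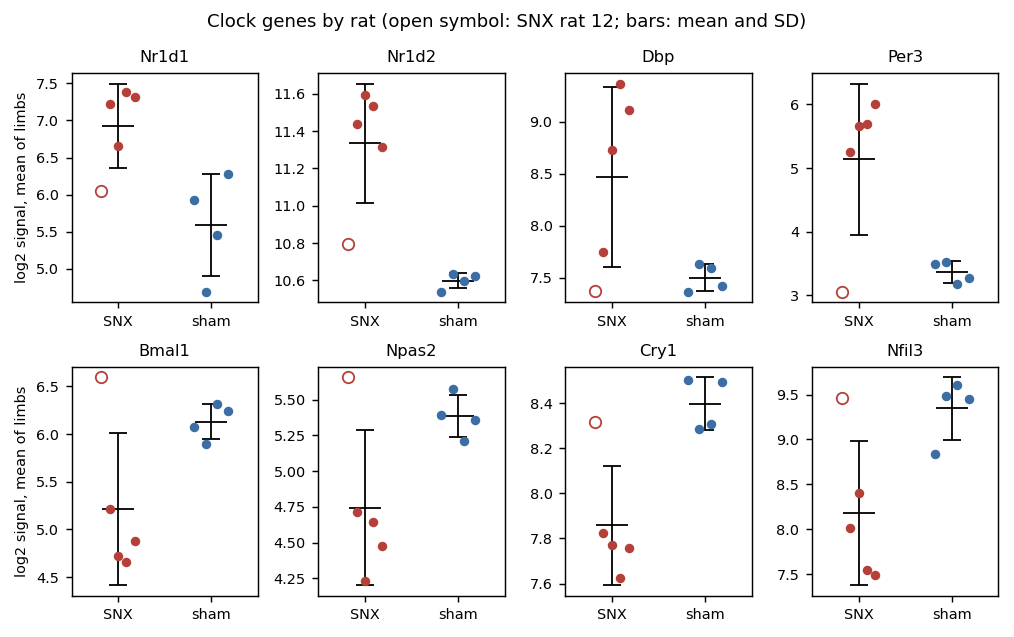
Log2 signal of 8 clock genes, 1 point per rat (mean of both limbs), SNX rats left and sham rats right, with bars for the mean and SD and SNX rat 12 as an open symbol. In every panel except Nr1d2 the open symbol lies at the sham level or beyond it, while the other 4 SNX rats lie on the far side of all sham rats. In Nr1d2 it lies between the sham rats and the other SNX rats.

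Genes of muscle wasting did not separate the groups. None of 15 atrophy and ubiquitin ligase genes was without overlap, and none had an unadjusted limma p below 0.05. There were 2 higher without sham rat 11 and 1 without sham rat 17, against 11.3% and 2.84% of all genes. Of the 15, 10 lay above 0, against 60.6% of all genes. Their median was 0.13 (0.07 to 0.22 with single rats left out), with 0.04 in the right and 0.24 in the left limb. The ubiquitin ligase Fbxo32 read 6.84, 6.17, 5.51, 6.01 and 6.42 in SNX rats, against 6.02, 5.54, 6.25 and 6.45 in sham rats, and the ligase Trim63 read 12.15, 11.40, 12.14, 11.43 and 12.03 in SNX rats, against 11.37, 12.09, 12.16 and 12.52 in sham rats. Their differences were 0.13 ± 0.28 and -0.20 ± 0.27, within the spread of either group, and that of Fbxo32 was below 0 without SNX rat 12 (-0.04) or sham rat 13 (-0.05). Of 17 autophagy genes 14 lay above 0, with a median of 0.09 (0.05 without SNX rat 18 or sham rat 11). The cargo receptor Sqstm1 was higher without overlap (0.16 ± 0.05), against 1.25% of all genes. Without SNX rat 49 there were 2 such genes, against 2.82%. Igf1 differed by -0.37 ± 0.31, and of 18 IGF and insulin signalling genes 14 lay below 0, with a median of -0.16. No member was without overlap. With SNX rats 12, 20 or 49 or sham rats 11 or 13 left out in turn, 1 to 3 were, against 2.02% to 4.11% of all genes. The adaptor of the insulin receptor Irs2 differed by -1.75 ± 0.69, with SNX rat 12 among the sham rats.

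Glucocorticoid response genes had a median of -0.34 over 15 members (-0.18 without sham rat 17), and the groups overlapped in every member. Without SNX rat 12 or sham rat 11, 2 members were lower without overlap, against 2.90% and 4.11% of all genes. Without SNX rat 20, 1 was, against 2.41%. Fkbp5, a sensitive target of the glucocorticoid receptor, read 9.12, 8.54, 8.99, 8.40 and 8.55 in SNX rats, against 9.20, 9.11, 9.17 and 8.77 in sham rats (-0.34 ± 0.17). Hsd11b1, the enzyme that regenerates active glucocorticoid in tissues, read 8.66, 8.07, 8.17, 8.29 and 8.48 in SNX rats, against 9.45, 10.16, 9.14 and 9.16 in sham rats. This difference of -1.15 ± 0.23 (adjusted p = 0.464) was -1.18 ± 0.38 in the right and -1.12 ± 0.23 in the left limb. Of the 12 renin, angiotensin and aldosterone genes, whose median was -0.23, Hsd11b1 was the 1 without overlap, against 1.69% of all genes. Omitting SNX rat 12, 18, 20 or 37 or sham rat 15 gave 2 such genes, against 1.93% to 2.90%. Omitting sham rat 17 gave a median of -0.14.

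Stress genes leaned downward with wide spread. All 17 heat shock and unfolded protein response genes lay below 0, with a median of -0.33 (-0.13 without SNX rat 18), and none was without overlap. There were 2 without SNX rat 12, against 2.90% of all genes, and 1 without SNX rat 49 or sham rat 15, against 3.65% and 2.58%. The chaperone Hspa1a read 11.04, 9.35, 10.85, 9.99 and 9.84 in SNX rats, against 10.94, 11.41, 11.45 and 10.67 in sham rats, with SNX rats 12 and 20 at the sham level. Over 18 immediate early genes the median was -0.61, with -0.88 in the right and -0.18 in the left limb, and it was -0.34 without SNX rat 37. Junb (-0.60 ± 0.16) was the 1 gene without overlap, against 1.69% of all genes. There were 4 without SNX rat 12 or sham rat 11, against 2.90% and 4.11%. The mean level of this list by rat was 6.64 to 8.18 in SNX rats and 7.97 to 8.16 in sham rats, and SNX rat 12 stood above all sham rats while the other SNX rats stood below them.

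Contractile and mitochondrial genes showed no separation. The 20 oxidative phosphorylation and citric acid cycle genes had a median of 0.01 (-0.05 to 0.05 with single rats left out) and differences from -0.17 to 0.06, and none was without overlap. Ppargc1a, a regulator of mitochondrial content, differed by -0.13 ± 0.35, and its sign turned without SNX rat 12 (0.02) or sham rat 15 (0.09). The 10 slow fibre contractile genes had a median of -0.18, with -0.52 in the right and 0.20 in the left limb, and leaving out SNX rat 20 turned it to 0.20, sham rat 13 to 0.10, SNX rat 12 to -0.38, SNX rat 37 to -0.32 and sham rat 17 to -0.54. Myh7, the slow myosin heavy chain, read 15.45, 15.04, 13.49, 15.16 and 14.90 in SNX rats, against 15.12, 15.56, 15.05 and 14.16 in sham rats, so its spread came mainly from SNX rat 20 and sham rat 17. The difference of -0.16 ± 0.43 was 0.17 without SNX rat 20 and 0.03 without sham rat 13. Pdk4, which holds back glucose oxidation, differed by -0.37 ± 0.26. The 12 fast fibre contractile genes had a median of 0.04, and none was without overlap (2 higher without sham rat 17, against 2.84% of all genes). Of 12 myogenic and regeneration genes 6 lay above and 6 below 0, with a median of -0.01. Myf6, a myogenic factor of adult fibres, was the 1 lower without overlap (-0.46 ± 0.13), against 1.69% of all genes, and Mef2d the 1 higher, against 1.25%. There were 2 lower without SNX rat 12, SNX rat 49 or sham rat 15, against 2.90%, 3.65% and 2.58%, and 2 higher without SNX rat 37, against 1.72%.

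The 12 genes with the lowest p that were higher without overlap differed by 0.21 to 0.65. E2f2, a transcription factor of the cell cycle, read 7.45, 7.83, 7.83, 7.51 and 7.65 in SNX rats, against 6.86, 7.11, 6.91 and 7.14 in sham rats (0.65 ± 0.10, adjusted p = 0.440). Ccng2, an atypical cyclin known as a FoxO target, read 10.53, 10.86, 10.75, 10.78 and 10.40 in SNX rats, against 10.16, 10.11, 10.04 and 10.26 in sham rats (0.52 ± 0.10). The others were the Mediator subunit Med18 (0.44), the histone gene H2ac25 (0.39), the ubiquitin ligase Rnf6 (0.32), the mismatch repair gene Pms1 (0.32), the RNA-binding protein gene Fxr1 (0.26), the lipid kinase Pik3c3 of autophagy (0.23), the muscle transcription factor Mef2d (0.21), Zfp106 (0.29), Zfp639 (0.27) and Lrrc57 (0.25). All 12 had the lowest adjusted p of the table, 0.440, which many probe sets share. On the lower side the same rule gave Marcksl1, an actin-binding protein gene (-0.60), RT1-CE16 (-0.62), Adnp2 (-0.40), Inhbb, F2r, Rnf13 (-0.31), Reck, Efemp1, Fasn, Inhba, Stard4 and S100b.

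Lists drawn from the known biology of uraemia otherwise lay near the median of all genes. The median was -0.01 for 8 aryl hydrocarbon receptor genes, 0.01 for 12 phosphate, vitamin D and FGF23 receptor genes, 0.07 for 13 ion pump and potassium handling genes and -0.01 for 20 NRF2 and antioxidant genes. Leaving out single rats moved these medians to between -0.08 and 0.02, 0.01 and 0.03, 0.03 and 0.09, and -0.05 and 0.03. In the first of these lists 6 members were dimmer than the median of all probe sets, and in the second 6 were. Keap1, the inhibitor of NRF2, was the 1 gene of these lists without overlap (0.34 ± 0.11), against 1.25% of all genes that were higher. Without sham rat 11 there were 2 higher aryl hydrocarbon receptor genes, against 11.3% of all genes, and without SNX rat 20 there were 2 higher NRF2 and antioxidant genes, against 1.87%. Otherwise single omissions gave at most 1 such gene per direction in each list. The shares of all genes in these settings were 1.58% to 11.3% higher and 1.93% to 4.11% lower. The 8 NADPH oxidase subunits had a median of -0.19, which was 0.01 without sham rat 17 and -0.31 without SNX rat 49.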

How the data were processed

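Affymetrix rat arrays were hybridised with biotin-labelled cRNA from 2 ug of total RNA of each soleus, per the labels' protocols. The values deposited by the authors are log2 signals of 31099 probe sets, already normalized. Per the submitters' processing notes the tools were RMA, GCRMA and Partek, with roles and versions not given in the sources used here. Background handling differs between such methods, which alters dim probe sets most. Arrays carry no read counts, so their number limits the precision.

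The 57 control probe sets were left out. Group, side and rat number came from the titles, and the left and right values of each rat were averaged. limma 3.58.1 (lmFit, eBayes) in R 4.3.3 was fitted to the 9 averages, with 7 residual and 1.06 prior degrees of freedom and a median standard error of 0.06. Two-sided p-values were adjusted (Benjamini-Hochberg) over 31042 probe sets, with a threshold of 0.05. The same fit on right minus left values tested the difference between limbs. Symbols came from the platform annotation, updated through Entrez IDs to RefSeq for 20758 of 20826 probe sets with 1 gene. The 436 with several genes and the 9780 with none entered the tests without a name.

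The comparison, its gene lists and its tests were chosen with earlier results of these data known. Another 5 lists (fatty acid synthesis, cholesterol, MHC class II, peroxisomal oxidation, sulfur amino acids) were added after the values were seen, as were other examples. By rule the text names 12 genes per direction, filled by lowest p without overlap as none passed, and 16 fixed genes. The fit was tested on simulated data. Rats are separate animals and SNX and sham share no rat number. As a check of pairing within rats, limb deviations from the group mean correlated above 0.1 in 7 of 9 rats. The alternatives tried concern scaling, dim probe sets, the fit, the limbs and single rats. The fold behind a difference is 2 to that power. Tables and figures were made with Python 3.11.15, pandas 2.3.3 and matplotlib 3.10.9.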

Additional observations from a re-analysis of the deposited data

Results flagged for a closer look

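In 174 groups of rat values examined, 12 samples stood so far from the rest of their group that Dixon's gap test marked them, and chance alone marks about 1 in 20 groups. Among the SNX rats, rat 18 was marked in H2ac25 (8.61, with the next rat at 8.48), in Rnf6 (8.74, next 8.91) and in F2r (7.67, next 7.89), rat 37 in Lrrc57 (8.10, next 8.21), rat 20 in Myh7 (13.49, next 14.90) and rat 12 in Bmal1 (6.59, next 5.21). SNX rat 49 was marked in the mean level of the inflammatory cytokines and chemokines (4.52, next 3.94) and of the T and B cell markers (2.61, next 2.41). Among the sham rats, rat 11 was marked in Lrrc57 (8.07, next 7.93) and in the mean level of the IGF and insulin signalling genes (8.13, next 8.44), and rat 17 in that of the interferon response genes (6.11, next 5.56) and of the cell cycle genes (4.14, next 3.64).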

How the results depend on the processing

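The count of probe sets past the threshold stayed at 0 with quantile normalization, with centred arrays, with brighter probe sets only, with 1 probe set per gene, with the trend and robust settings, with weights per rat, in each limb alone, without SNX rats 37 and 49 and without sham rat 17 and SNX rat 49. Fitted on 18 arrays with no replicate block, 6 passed, all 6 lower (adjusted p = 0.0478), and with the rat as a random replicate block (correlation 0.297) 0 passed. The block on 16 arrays, without the 2 right arrays that stood apart, gave 4, with 1 higher and 3 lower. Leaving out single rats gave 0 to 2, the 2 being higher, without SNX rat 12. The count of genes without overlap that were lower, 240, ran from 274 to 584 without single rats and was 650 without sham rat 17 and SNX rat 49, 707 without SNX rats 37 and 49, and 104 in the right limb alone. The higher count, 178, ran from 224 to 1603 and was 716, 710 and 742 in these settings, and 286 with quantile normalization. These counts of genes without overlap and the list values under other settings were added after the data had been seen. No paired analysis was possible because SNX and sham rats share no number, so the block stands for the 2 limbs of a rat. The sign turned for Fbxo32 in the right limb (-0.00662) and without single rats (-0.0473 to 0.295), for Ppargc1a in the right limb (0.0890), without SNX rats 37 and 49 (0.00556) and without single rats (-0.38 to 0.0943), for Nos3 without single rats (-0.350 to 0.0482) and for Myh7 in the left limb (0.15) and without single rats (-0.43 to 0.17). The cause was not tested. Inhbb and Reck passed with no replicate block. Of the values recomputed, 1767 kept their side and direction or stayed within the spread between rats, 46 moved further, 11 turned sign and 2 came to pass the threshold. Scaling moved the median of all genes from 0.02 to 0.00. With 5 and 4 rats small differences could not be resolved, and values of dim probe sets depend on a background treatment that the sources do not settle.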
